A study of Mus musculus with 7 samples.

Results

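The genes described here encode 9 receptors through which hormones, nutrients and autonomic transmitters act on pancreatic islet cells: Glp1r, Gipr, Gcgr, Gpr119, Ffar1, Chrm3, Adra2a, Sstr3 and Prlr. They were chosen by name, as receptors of incretins, glucagon, fatty acids and their derivatives, acetylcholine, adrenaline, somatostatin and prolactin. All 9 were found among the 55487 genes of the deposited count table, and all 9 passed the low-count filter that left 16203 genes for testing. RNA had been sequenced from isolated islets of mice on a high-fat diet (60% fat) for 15 weeks, and the islets had recovered in culture medium for 24 hours before RNA was taken. There were 4 control libraries and 3 Traf6 KO libraries, each with an animal tag of its own and each taken as 1 mouse. Traf6 encodes a ubiquitin ligase that relays signals of innate immune receptors, and the design text describes its loss as specific to beta cells. The diet, the tissue and the recovery were the same in both groups. The labels name neither the Cre driver nor the strain, age, sex or litter, and they do not say what the controls carry, so whether the controls have Cre or a floxed allele is not given here.

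All but the prolactin receptor are G-protein-coupled. The GLP-1, GIP and glucagon receptors and GPR119 couple mainly to Gs, which raises cAMP in beta cells and strengthens glucose-stimulated insulin secretion. The fatty acid receptor FFAR1 and the muscarinic receptor M3 act mainly through Gq and phospholipase C, whereas the adrenergic receptor alpha-2A and the somatostatin receptor SSTR3 couple to Gi and restrain secretion. The prolactin receptor is a cytokine receptor that signals through JAK2 and STAT5 and is known for its part in beta-cell expansion during pregnancy.

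The receptor genes differ in the DNA around their start. RefSeq promoter windows on GRCm38.p6, from 250 bases before to 50 bases after each annotated start, were found for 8 of the 9 genes, in 11 windows in all. Stretches without annotated exons are shown for 4 of them, because counts of Glp1r and Ffar1 kept nearly the same ratio in every library, while the ratios of Ffar1 and Gcgr to Prlr were lower in every knockout library. They are printed on the strand of the gene, with motif matches in capitals.
Glp1r, chr17:30901617-30901816, plus strand: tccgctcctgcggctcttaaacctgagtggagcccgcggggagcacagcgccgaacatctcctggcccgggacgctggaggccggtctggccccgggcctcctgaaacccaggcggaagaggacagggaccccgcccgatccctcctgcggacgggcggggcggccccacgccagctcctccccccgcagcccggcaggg
Ffar1, chr7:30861565-30861720, minus strand: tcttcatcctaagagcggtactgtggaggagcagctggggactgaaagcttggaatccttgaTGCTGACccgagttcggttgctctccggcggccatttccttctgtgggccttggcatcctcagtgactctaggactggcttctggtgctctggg
Gcgr, chr11:120530555-120530698, plus strand: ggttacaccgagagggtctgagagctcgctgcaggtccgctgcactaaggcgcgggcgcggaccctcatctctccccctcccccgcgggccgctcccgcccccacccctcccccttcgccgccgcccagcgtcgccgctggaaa
Prlr, an internal start, chr15:10223656-10223905, plus strand: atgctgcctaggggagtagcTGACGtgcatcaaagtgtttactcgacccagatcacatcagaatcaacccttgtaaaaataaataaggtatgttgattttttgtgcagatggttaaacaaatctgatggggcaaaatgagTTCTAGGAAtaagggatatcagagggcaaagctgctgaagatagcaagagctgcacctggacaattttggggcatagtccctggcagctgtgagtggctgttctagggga
The capitals in Ffar1 mark TGCTGAC, a half-site of the MAF family of factors, which held in 4.67% of the 32851 mouse windows of the same length. Those in Prlr mark TGACG, the core of the cAMP response element, and one match of TTCNNNGAA, the STAT5 motif. The core was in 20.8% of all windows and in 4 of the 11 receptor windows, belonging to Gpr119, Adra2a, Sstr3 and Prlr. The STAT5 motif was in 8.3% of all windows and, among the receptors' windows, only in this internal Prlr window. Prlr also had other windows, including that at the first base of the gene, and none of the motifs searched was found in them. The full element TGACGTCA, which contains the core, was in 1.79% of all windows, and the NF-kB motif in 4.51%. Neither was found in a receptor window. Both strands were searched, and a match describes letters in a window, not a bound site. The Glp1r and Gcgr windows were rich in G and C, at 73.7% and 71.7%, against a median of 52.7% over all windows, with 56.3% for Ffar1 and 45.7% for this Prlr window.

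The libraries held 22104256 to 29917292 counts, and CPM below is the count scaled to the product of the library's total over tested genes and its TMM factor, which ran from 0.5 to 1.35. The islet hormones Gcg, Sst and Ppy were abundant in all 7 libraries, but so were transcripts of acinar cells in some: 34 acinar markers took 20.5% of counts in control 1, 56.9% in Traf6 KO 1 and 43.5% in Traf6 KO 2, against 0.47% to 3.26% in the other 4 libraries. Traf6 itself (chr2:101678429-101701669) stood at 17.95, 25.5, 22.1 and 12.65 CPM in controls 1 to 4 and at 14.8, 15.4 and 14.5 CPM in the knockout libraries, a log2 difference of -0.40 ± 0.22 (SE) with an edgeR adjusted p of 0.416. The library labelled control 4 thus had less Traf6 than every knockout library, the reverse of what its label would give. Traf6 overlapped between the groups, so its level cannot settle whether that label is right. The doubt bears on every direction below. Islet cells other than beta cells keep the gene in a beta-cell knockout. Xist reached 12998 counts in Traf6 KO 3 and at most 11 elsewhere, and 4 Y-linked genes were at 0 counts in that library alone. Without the library labelled control 4, the log2 differences were -0.55 for Traf6, -0.61 for Gcgr, -0.42 for Gipr and -0.37 for Sstr3, and no receptor gene changed sign.

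None of the 9 receptor genes passed the threshold between genotypes (edgeR quasi-likelihood test, Benjamini-Hochberg adjusted p under 0.05 over all genes). Of all 16203 genes tested, 0% passed. At an unadjusted p under 0.05 there were 2 of 9, Gcgr and Sstr3, both with a lower mean in Traf6 KO islets, beside 16% of all genes in either direction. Sstr3 was the only receptor gene whose groups did not overlap, with every knockout library below every control library, a pattern shown by 8.68% of all genes. No receptor gene had every knockout library above every control library, which 5.58% of all genes had. Of the 9 log2 differences, 4 lay above 0 and 5 below, with a median of -0.10 beside 0.01 over all genes. By the DESeq2 Wald test 634 genes passed and by limma-voom with quality weights 1046, none of them a receptor gene of the 9.

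**Figure D1:**
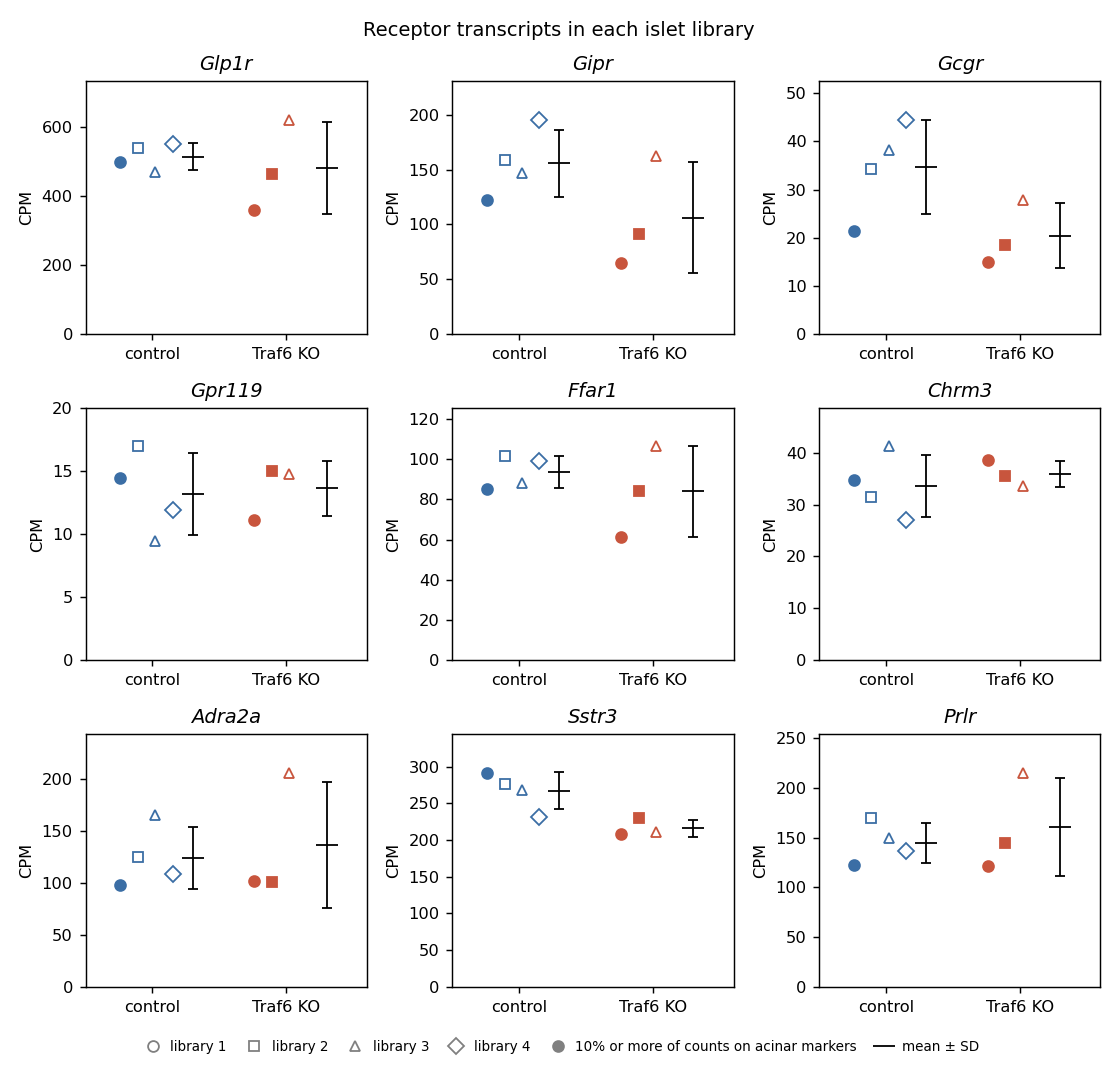
Level of each receptor gene in every library, in CPM from 0 on each vertical axis, for control (blue) and Traf6 KO (red) islets; the marker shape gives the library number, filled markers have 10% or more of counts on acinar markers, and the bar is the mean ± SD. Only for Sstr3 are all 3 knockout values below all 4 control values; for Gipr, Gcgr and Ffar1 the 3 filled markers are the 3 lowest.

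Among the Gs-coupled receptors, Glp1r encodes the receptor of GLP-1, the gut incretin imitated by drugs for type 2 diabetes (chr17:30901817-30940791, plus strand, 13 coding exons). Controls 1 to 4 held Glp1r at 497, 540.1, 468 and 552 CPM, and Traf6 KO 1 to 3 held it at 358, 464 and 621.5 CPM. The knockout libraries enclosed the whole control range, with the lowest and the highest of all 7 values. The means were 514 ± 38.7 CPM (SD, n = 4) and 481 ± 132 CPM (SD, n = 3). The log2 difference was -0.10 ± 0.20 (SE), with a 95% interval from -0.57 to 0.38 and an edgeR adjusted p of 0.851. Its sign turned to 0.25 in the libraries poor in acinar markers, to 0.07 with the acinar level as a covariate, to 0.13 when libraries were scaled to beta-cell markers and to 0.08 without Traf6 KO 1. Scaling to beta-cell markers, here and below, moves the median of all genes to 0.25.

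Gipr encodes the receptor of GIP, the other incretin (chr7:19156061-19166127, minus strand). Its transcripts were at 122, 158.5, 147 and 196 CPM in the controls and at 64.7, 91.2 and 163 CPM in the knockout libraries. Traf6 KO 1 and 2 lay below every control, whereas Traf6 KO 3 lay above 3 of the 4 controls. The means were 156 ± 30.6 CPM (SD, n = 4) and 106 ± 50.6 CPM (SD, n = 3), a log2 difference of -0.55 ± 0.31 (SE; 95% interval -1.26 to 0.16; edgeR adjusted p = 0.410). Without Traf6 KO 3 the difference was -0.998, with an edgeR adjusted p of 0.0525. In the 4 libraries poor in acinar markers, of which Traf6 KO 3 is the only knockout, it was -0.05.

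Gcgr encodes the glucagon receptor, through which glucagon from neighbouring alpha cells can act on beta cells (chr11:120530699-120538986, plus strand). It was at 21.5, 34.3, 38.25 and 44.5 CPM in the controls and at 14.9, 18.55 and 27.85 CPM in the knockout libraries. Traf6 KO 3 was above control 1 and below the other controls, so the groups overlapped through 1 library on each side. The means were 34.65 ± 9.73 CPM (SD, n = 4) and 20.45 ± 6.66 CPM (SD, n = 3). At -0.75 ± 0.29 (SE) this was the lowest log2 difference of the 9, with a 95% interval from -1.42 to -0.09, an edgeR unadjusted p of 0.0306 and an adjusted p of 0.271. Without Traf6 KO 3 it was -1.04 with an edgeR adjusted p of 0.0798.

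For both Gipr and Gcgr the 3 lowest libraries were Traf6 KO 1, Traf6 KO 2 and control 1, in that order, which are also the 3 libraries richest in acinar markers, in the same order. With the acinar level as a covariate the differences shrank to -0.21 for Gipr and -0.35 for Gcgr. The 2 genes differed in the acinar-poor libraries, where Traf6 KO 3 is the only knockout. There Gcgr was at -0.49 and Gipr at -0.05. Counts on 17 beta-cell markers moved as well: 16 of 17 had a log2 difference below 0, with a median of -0.21, and their mean log2(CPM + 1) ran from 8.66 to 8.75 in the controls against 8.22, 8.46 and 8.64 in Traf6 KO 1 to 3. Scaled to those markers, which moves the median of all genes from 0.01 to 0.25, Gipr stood at -0.36 and Gcgr at -0.54. In whole islets, fewer cells of a type and less RNA per cell cannot be told apart.

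Gpr119, the receptor of oleoylethanolamide and related lipid amides, is a gene with its coding sequence in 1 exon (chrX:48667979-48674478, minus strand). It had the fewest counts of the 9, from 123 to 609 in a library. Its level was 14.4, 17.0, 9.49 and 11.9 CPM in the controls and 11.1, 15.0 and 14.8 CPM in the knockout libraries. All 3 knockout values lay inside the control range. The log2 difference was 0.05 ± 0.21 (SE; 95% interval -0.45 to 0.55; edgeR adjusted p = 0.929).

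**Figure D2:**
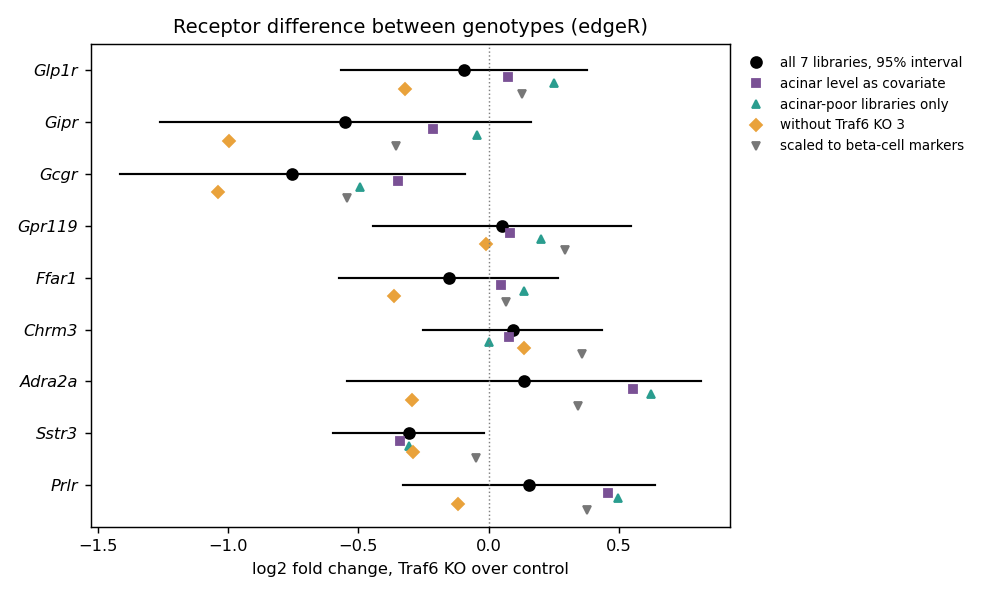
The log2 fold change of each receptor gene, Traf6 KO over control, with its 95% interval from edgeR over all 7 libraries (black), and the value under 4 other settings (coloured markers, drawn without intervals). The black intervals of Gcgr and Sstr3 lie below 0. The markers of Gipr, Gcgr and Sstr3 stay below 0 in the 4 settings, while those of Glp1r, Gpr119, Ffar1, Adra2a and Prlr fall on both sides.

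Of the Gq-coupled receptors, FFAR1 (GPR40) senses long-chain fatty acids, which are abundant on a high-fat diet. Ffar1 (chr7:30857390-30861564, minus strand, coding sequence in 1 exon) was at 85.0, 101.5, 88.2 and 99.2 CPM in the controls and at 61.2, 84.1 and 106 CPM in the knockout libraries. As with Glp1r, Traf6 KO 1 was the lowest and Traf6 KO 3 the highest of all 7 libraries. The means of 93.5 ± 8.09 CPM (SD, n = 4) and 83.9 ± 22.6 CPM (SD, n = 3) gave a log2 difference of -0.15 ± 0.18 (SE; 95% interval -0.57 to 0.27; edgeR adjusted p = 0.706). The sign turned to 0.14 in the acinar-poor libraries, to 0.05 with the acinar covariate, to 0.07 under beta-cell marker scaling and to 0.03 without Traf6 KO 1. Under beta-cell marker scaling both Ffar1 and Glp1r stayed below the median of all genes, 0.25.

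Chrm3 encodes the M3 receptor, which carries the action of parasympathetic acetylcholine on beta cells (chr13:9875486-10360847, minus strand). It stood at 34.7, 31.5, 41.2 and 27.0 CPM in the controls and at 38.5, 35.4 and 33.5 CPM in the knockout libraries. The knockout values sat in the middle of the control range. It was one of 4 receptor genes, with Gcgr, Gpr119 and Sstr3, whose spread in the knockout group (35.8 ± 2.51 CPM, SD, n = 3) was narrower than in the controls (33.6 ± 5.997 CPM, SD, n = 4). The log2 difference of 0.09 ± 0.15 (SE; 95% interval -0.25 to 0.43; edgeR adjusted p = 0.799) stayed above 0 under all 19 alternative settings, from 0.00112 to 0.36.

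Among the Gi-coupled receptors, Adra2a carries the inhibition of insulin secretion by adrenaline and noradrenaline (chr19:54044151-54048982, plus strand). Its level was 97.8, 125, 165 and 108 CPM in the controls and 102, 100.5 and 206 CPM in the knockout libraries. Traf6 KO 3 had the highest value of all, and the other 2 knockout libraries lay near the bottom of the control range. The means were 124 ± 29.6 CPM (SD, n = 4) and 136 ± 60.4 CPM (SD, n = 3), and the log2 difference was 0.13 ± 0.29 (SE; 95% interval -0.55 to 0.81; edgeR adjusted p = 0.855). Without Traf6 KO 3 the difference was -0.30, with an edgeR adjusted p of 0.437. It was larger with the acinar covariate, at 0.55 (edgeR adjusted p = 0.209), in the acinar-poor libraries, at 0.62, and under beta-cell marker scaling, at 0.34.

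Sstr3 encodes the somatostatin receptor that sits on the primary cilium of beta cells and receives somatostatin from delta cells (chr15:78537008-78544685, minus strand). It was at 292, 277, 268 and 232 CPM in controls 1 to 4 and at 208, 230 and 211 CPM in Traf6 KO 1 to 3. Every knockout library was below every control, by a narrow margin between Traf6 KO 2 and the library labelled control 4. That control had less Traf6 than every knockout library. The means were 267.2 ± 25.6 CPM (SD, n = 4) and 216 ± 11.96 CPM (SD, n = 3). The log2 difference was -0.31 ± 0.13 (SE; 95% interval -0.60 to -0.02), with an edgeR unadjusted p of 0.0406 and an adjusted p of 0.294. Unlike Gipr and Gcgr, it was as low with the acinar covariate (-0.34). Scaled to beta-cell markers it was -0.05. Its ligand gene Sst was at 4900, 2720, 4160 and 4020 CPM in the controls and at 3040, 3200 and 2980 CPM in the knockout libraries, an overlap through control 2 alone (log2 difference -0.36 ± 0.29, SE; edgeR adjusted p = 0.564).

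Prlr, the prolactin receptor gene (chr15:10177238-10349180, plus strand), is the longest of the 9 in merged exons, at 15.3 kb, of which 33 bases overlap exons of another gene. Its level was 122.3, 170.1, 149.5 and 136 CPM in the controls and 121.5, 145 and 215 CPM in the knockout libraries. Traf6 KO 3 was again the highest library, and Traf6 KO 1 lay just under control 1. The means were 144.5 ± 20.4 CPM (SD, n = 4) and 161 ± 48.8 CPM (SD, n = 3), a log2 difference of 0.15 ± 0.21 (SE; 95% interval -0.33 to 0.64; edgeR adjusted p = 0.750). Without Traf6 KO 3 it was -0.12. With the acinar covariate it was 0.46 (edgeR adjusted p = 0.203), in the acinar-poor libraries 0.49, and under beta-cell marker scaling 0.38.

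Across the set, Traf6 KO 1 was the lowest of the 7 libraries for 6 of the 9 genes, and Traf6 KO 3 the highest for 4. The sum of the 9 levels was 1287, 1455, 1375 and 1406 CPM in the controls and 979.5, 1184 and 1598 CPM in Traf6 KO 1 to 3, so the knockout libraries spanned a wider range than the controls and enclosed it. These libraries also differed in the acinar share, in sex as read from Xist and the Y-linked genes (Traf6 KO 3 female, the other 6 male) and in the letter of the animal tag, which is Q for Traf6 KO 1 and 2 and for controls 1 and 2, R for control 3, and S for Traf6 KO 3 and the library labelled control 4. Within tags Q and R, the log2 differences were -0.90 for Gcgr, -0.87 for Gipr, -0.36 for Adra2a, -0.35 for Sstr3, -0.33 for Ffar1, -0.29 for Glp1r, -0.14 for Prlr, -0.06 for Gpr119 and 0.04 for Chrm3, with edgeR adjusted p from 0.0901 upward. Tag S holds 1 library per genotype and gives no test.

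To compare receptors with each other, CPM was divided by the length of all merged exons (GENCODE M21, GRCm38). In control islets the order was Glp1r at 88.5 ± 6.65 CPM per kb, Sstr3 at 61.9 ± 5.91, Gipr at 44.7 ± 8.80, Adra2a at 25.7 ± 6.13, Ffar1 at 22.4 ± 1.94, Gcgr at 13.2 ± 3.71, Prlr at 9.42 ± 1.33, Gpr119 at 5.82 ± 1.42 and Chrm3 at 5.37 ± 0.959 (SD, n = 4). Thus GLP-1 receptor transcripts stood highest per length and those of the lipid amide and muscarinic receptors lowest. The neighbours Sstr3 and Gipr, Adra2a and Ffar1, Gcgr and Prlr, and Gpr119 and Chrm3 overlapped over the 4 libraries, and the other neighbouring pairs did not. In Traf6 KO islets the order differed in 1 place, with Prlr (10.5 ± 3.19 CPM per kb) ahead of Gcgr (7.801 ± 2.54; SD, n = 3), whose values overlapped. With the longest transcript as the length, Prlr also stood ahead of Gcgr in control islets, and Chrm3 ahead of Gpr119.

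**Figure D3:**
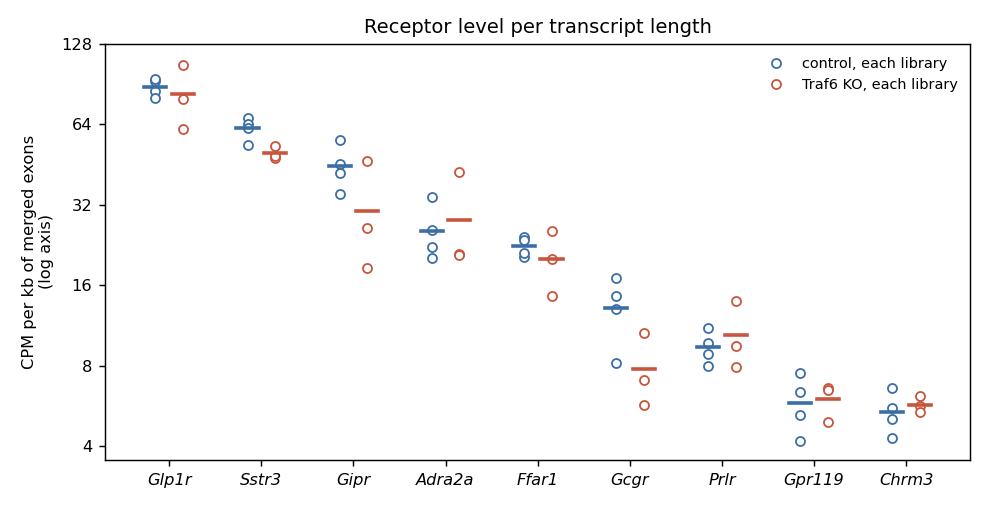
Receptor level per transcript length, in CPM per kb of merged exons on a log2-spaced axis, with 1 circle per library and a bar at the mean for control (blue) and Traf6 KO (red). The control means run from 88.5 for Glp1r down to 5.37 for Chrm3, and the knockout order differs in the places of Gcgr and Prlr.

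Ratios of counts within a library do not depend on its total or its scaling. The ratio of Glp1r to Ffar1 counts was 5.85, 5.32, 5.31 and 5.56 in the controls and 5.85, 5.52 and 5.84 in the knockout libraries. Its range of 0.14 on the log2 scale was the narrowest of the 36 pairs among the 9 genes, whose median range was 1.03. Both genes therefore followed nearly the same course from library to library, in acinar-rich and acinar-poor preparations alike. The ratio of Ffar1 to Prlr had a range of 0.56, and that of Gipr to Gcgr 0.60. Glp1r to Gipr was 4.08, 3.41, 3.18 and 2.82 in the controls against 5.54, 5.09 and 3.82 in the knockout libraries, where control 1 exceeded Traf6 KO 3. Glp1r to Gcgr was 23.1, 15.7, 12.2 and 12.4 against 24.0, 25.0 and 22.3, and here too control 1, rich in acinar counts, lay among the knockout values. Traf6 KO 3, poor in acinar counts, nevertheless lay above the acinar-poor controls. These pairs were chosen after their values were seen and are described without a test.

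**Figure D4:**
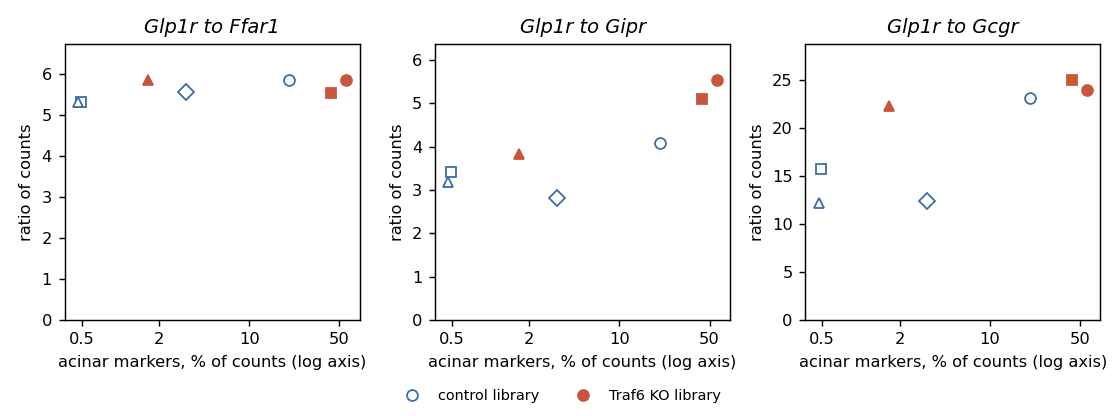
Ratio of Glp1r counts to those of Ffar1, Gipr and Gcgr in each library (vertical axes from 0) against the share of counts on acinar markers (log axis, %), for control (open blue) and Traf6 KO (filled red) libraries; marker shapes give the library number. The ratio to Ffar1 stays between 5.31 and 5.85, whereas that to Gcgr runs from 12.2 to 25.0, with control 1 beside the knockout libraries. Among the libraries poor in acinar markers, Traf6 KO 3 has the highest ratio to Gcgr.

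Set against Prlr in the same library, 3 of the other 8 receptor genes had a lower ratio in every knockout library than in every control, which 6.41% of all other tested genes had. The ratio of Gipr to Prlr counts was 0.997, 0.931, 0.984 and 1.44 in the controls and 0.532, 0.628 and 0.755 in Traf6 KO 1 to 3. For Gcgr it was 0.176, 0.202, 0.256 and 0.327 against 0.123, 0.128 and 0.129, so the knockout libraries were close together while the controls spread. For Ffar1 it was 0.695, 0.597, 0.59 and 0.728 against 0.504, 0.579 and 0.494. The groups lay near each other for Ffar1 and further apart for Gipr and Gcgr, and the order of Traf6 KO 3 among the knockout libraries differed between the genes. Prlr was taken as the denominator after the values were seen.

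By the smallest root-mean-square difference of centred log2(CPM + 1) over the 7 libraries, among 10327 genes compared, the genes closest in pattern were Kdm2b and Foxo6 for Glp1r (0.041 and 0.046), Adgrl1 and Dnaaf9 for Ffar1 (0.0422 and 0.0466), and Thada and Ptpn23 for Prlr (0.0462 and 0.0639). Sstr3 was closest to Eef1akmt2 and Dpy30 (0.0244 and 0.0431). Chrm3 was closest to Norad and Aatf (0.0741 and 0.075). Differences were larger for Gipr (Carmil3 0.0884, Tmem25 0.105), Gcgr (T2 0.111, Pde4c 0.153), Adra2a (Chaserr 0.105, Cd274 0.122) and Gpr119 (Rasgrf2 0.107, Slc8a2 0.108). Gipr, Gcgr and Adra2a also ranged more widely over the libraries, by 1.58, 1.51 and 1.07 on the log2 scale. The range was 0.793 for Glp1r and 0.778 for Gpr119.

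The genes around these receptors were followed in 8 lists. No gene of any list passed by edgeR over all 7 libraries. Over all 16203 genes tested, 8209 log2 differences lay above 0 and 7994 below. Beside the 16% of all genes with an unadjusted p under 0.05 and the 14.3% without overlap between groups in either direction, the same-family receptors had 3 of 15 tested genes under that p and 33.3% without overlap, with a median log2 difference of 0.17. Among them Ffar2, a receptor of short-chain fatty acids, was at 41.1, 27.4, 27.9 and 36.3 CPM in the controls and at 19.7, 17.7 and 23.1 CPM in the knockout libraries, all below the controls (log2 difference -0.71 ± 0.18, SE; edgeR adjusted p = 0.199). It passed by the DESeq2 Wald test. Ffar3, the related short-chain fatty acid receptor, also had every knockout library below every control (-0.51 ± 0.15, SE; edgeR adjusted p = 0.219). Vipr2, a VIP and PACAP receptor of the glucagon receptor family, was at 1.93 to 3.08 CPM in the controls and at 9.60, 8.25 and 2.89 CPM in the knockout libraries, high in the 2 acinar-rich ones. Its log2 difference of 1.49 ± 0.40 (SE; edgeR adjusted p = 0.201) passed by DESeq2 and by limma-voom with quality weights, and was 0.67 with the acinar covariate and 0.36 in the acinar-poor libraries. Ffar2 was at -0.41 in the acinar-poor libraries.

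Other islet G-protein-coupled receptors (28 tested, 6 with an unadjusted p under 0.05, median 0.09) included Ptger4, a Gs-coupled prostaglandin E receptor. It was at 3.89, 1.45, 2.37 and 2.58 CPM in the controls and at 18.7, 9.38 and 6.13 CPM in the knockout libraries, all above the controls (2.14 ± 0.44, SE; edgeR adjusted p = 0.176). Ptger4 passed by DESeq2 and by limma-voom with quality weights. The order of the knockout libraries was that of their acinar share, and the difference was 1.40 with the acinar covariate. Of the ligands and their processing enzymes, 10 of 15 lay below 0 (median -0.22). Ucn3, a beta-cell peptide that drives somatostatin release and thereby bears on Sstr3, was at 496, 537, 491 and 459 CPM in the controls and at 324, 346 and 413 CPM in the knockout libraries (-0.46 ± 0.15, SE; edgeR adjusted p = 0.231), again without overlap, and passed by DESeq2 and by limma-voom with quality weights. It was -0.27 in the acinar-poor libraries and -0.22 when scaled to the beta-cell markers, which include Ucn3 itself. Gcg, the gene of glucagon and GLP-1, overlapped between groups (-0.11 ± 0.45, SE; edgeR adjusted p = 0.929).

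Downstream of the receptors, the Gs and cAMP list had 23 of 37 tested genes above 0 (median 0.07), with 5 at an unadjusted p under 0.05, and 5.41% without overlap. Pde8b, a cAMP phosphodiesterase with the smallest p of the list, was at 2.42, 1.03, 0.849 and 1.73 CPM in the controls and at 7.34, 7.87 and 1.49 CPM in the knockout libraries. Again the 2 acinar-rich knockout libraries were high and Traf6 KO 3 lay among the controls. Its difference of 1.87 ± 0.60 (SE; edgeR adjusted p = 0.230) passed by DESeq2 and by limma-voom with quality weights, and was 0.57 with the acinar covariate and 0.31 in the acinar-poor libraries. Pde4d, another cAMP phosphodiesterase, was above the controls in every knockout library (0.82 ± 0.26, SE; edgeR adjusted p = 0.231). In the Gq and phospholipase C list, 15 of 21 lay above 0 (median 0.07). All 5 of its genes with an unadjusted p under 0.05 were higher in mean, beside 1428 of 2589 such genes among all tested. Plcb4 was at 28.8, 22.5, 27.5 and 26.6 CPM in the controls and 44.4, 41.0 and 35.1 CPM in the knockout libraries (0.61 ± 0.12, SE; edgeR adjusted p = 0.176). Plcb1 was at 15.8, 17.0, 17.0 and 14.3 CPM against 22.4, 23.9 and 20.6 CPM (0.47 ± 0.11, SE; edgeR adjusted p = 0.189). Both encode phospholipase C enzymes that Gq activates, neither overlapped between groups, and both passed by DESeq2 and by limma-voom with quality weights. Among the knockout libraries both were lowest in Traf6 KO 3, which was poor in acinar markers. Dgkd of the same list was at 0.41, at 0.24 with the acinar covariate and at 0.11 in the acinar-poor libraries. The part of acinar RNA in these differences was not tested.

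The Gi, Go and signal-ending list had 17 of 40 genes above 0 and 23 below (median -0.03), with 6 at an unadjusted p under 0.05. Gnai2, an inhibitory G-protein subunit, was at 364, 434, 351 and 386 CPM in the controls and 259, 274 and 304 CPM in the knockout libraries, without overlap (-0.46 ± 0.14, SE; edgeR adjusted p = 0.216). Arrb1, which encodes beta-arrestin 1, stood at 5.89, 3.77, 4.36 and 8.27 CPM against 22.9, 17.7 and 8.30 CPM (1.54 ± 0.38, SE; edgeR adjusted p = 0.199), with Traf6 KO 3 level with the library labelled control 4. Both passed by DESeq2 and by limma-voom with quality weights. Arrb1 was high in the 2 acinar-rich knockout libraries, and its difference was 0.85 with the acinar covariate and 0.60 in the acinar-poor libraries. Gnai2 was at -0.21 under beta-cell marker scaling. In the prolactin list (20 tested, 12 above 0, median 0.05), Jak2, the kinase bound to the prolactin receptor, was at 21.9, 23.7, 25.3 and 23.9 CPM in the controls and at 28.0, 30.5 and 29.6 CPM in the knockout libraries. All 3 knockout values were above all controls (0.31 ± 0.09, SE; edgeR adjusted p = 0.215). The STAT5 genes overlapped, at -0.05 for Stat5a and 0.08 for Stat5b.

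The list of cAMP-induced transcripts also holds genes of the CREB and CRTC factors that regulate this response, so it is not purely one of targets. In it 14 of 21 lay above 0, with a median of 0.45 that became -0.35 without Traf6 KO 3. Bcl2, an inhibitor of apoptosis, was at 4.87, 4.10, 5.98 and 4.35 CPM in the controls and at 11.2, 8.41 and 7.49 CPM in the knockout libraries (0.90 ± 0.21, SE; edgeR adjusted p = 0.189), all above the controls, and passed by DESeq2 and by limma-voom with quality weights. Irs2, an insulin-signalling adaptor induced by GLP-1 in beta cells, was at 16.9 to 38.9 CPM in the controls and at 16.1 and 31.5 CPM in Traf6 KO 1 and 2, but at 396 CPM in Traf6 KO 3. Its log2 difference of 2.28 ± 0.96 (SE; edgeR adjusted p = 0.304) was -0.35 without that library.

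**Figure D5:**
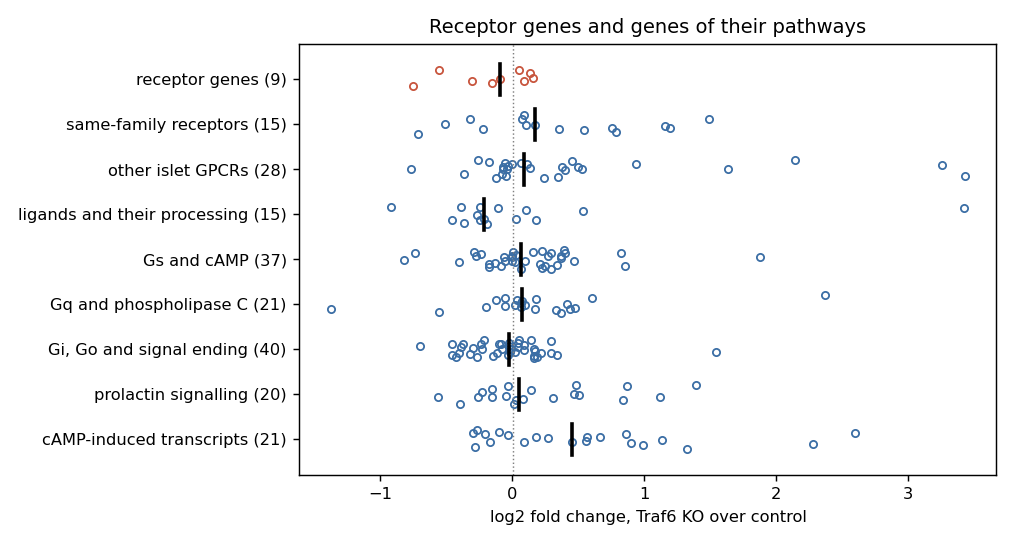
The log2 fold change, Traf6 KO over control, of each tested gene (circle) for the 9 receptor genes (red) and 8 lists of genes in their pathways (blue), with the number tested in brackets and a bar at the median. The receptor genes lie between -0.75 and 0.15, and the medians run from -0.22 for ligands and their processing to 0.45 for cAMP-induced transcripts.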

How the data were processed

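Per the labels, islet RNA libraries were read in paired 151 bp cycles, and a tissue DNA kit is named for the RNA extraction. The authors deposited raw whole-number counts for each gene and library. The submitters' processing notes name STAR 2.6.1b, RSEM 1.3.1, FastQC and GRCm38 without saying what each did, and the values could be RSEM estimates rounded to whole numbers. The annotation, strand setting and any filter were not given in the sources used here, so reads of overlapping antisense genes cannot be told apart.

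The test was edgeR's quasi-likelihood F test (version 4.0.16, R 4.3.3) with TMM factors and genotype as sole term. Genes were filtered by filterByExpr with a minimum count of 10, required in only some of the libraries, and 15 counts in all. The p-values were adjusted over all 16203 genes tested. The script was tested on simulated data. Each SE is the log2 difference over the root of its F value. All 21 pairs of libraries differed by more than sampling noise (chi-square per gene at least 21.82). Should any libraries share an animal, the p-values reflect technical spread in part.

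The receptor genes and the pathway and marker lists were chosen with earlier results of these data known. Named genes are the 9 receptors and Traf6, in each pathway list up to 4 tested genes with the smallest unadjusted p, for each receptor the 2 nearest patterns among genes with a mean CPM of at least 5, and defining cell markers. Stat5a, Stat5b, Xist, Fos and Nr4a1 were named outside this rule, after their values were seen. Alternatives were DESeq2 1.42.0 size factors and Wald test, limma 3.58.1 voom with quality weights, 2 other low-count filters, the replicate block, the acinar level as a covariate, acinar rows removed, acinar-poor libraries only (under 10% acinar counts), scaling to beta-cell markers, tag S against tags Q and R as a term, each library left out and, chosen after seeing the data, tags Q and R only.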

Additional observations from a re-analysis of the deposited data

Results flagged for a closer look

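No receptor gene had a control library set apart from the other controls by a gap test (Dixon, 4 libraries). Among the pathway genes named, Gal, the gene of the neuropeptide galanin, had its highest control value of 47.9 CPM in control 1, where the gap to the next control took 0.957 of the control range. Ptger3, a prostaglandin E receptor gene, was at 18.1 CPM in the same library, with a gap of 0.955 of the range. Control 1 had 20.5% of its counts on acinar markers, and both genes were higher still in the acinar-rich libraries Traf6 KO 1 and 2, at 311 and 94.7 CPM for Gal and 114 and 79.3 CPM for Ptger3. The part of acinar RNA in these values was not tested. Chance alone sets about 1 in 20 groups apart in this way.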

How the results depend on the processing

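None of the 9 receptor genes passed the threshold in any of 19 alternative settings. Of 171 receptor values, 153 kept their sign and 18 did not. Gipr, Gcgr and Sstr3 stayed below 0 throughout, from -0.998 to -0.05, from -1.04 to -0.35 and from -0.37 to -0.05, and Chrm3 stayed above 0. The lowest adjusted p of Sstr3 was 0.102, by limma-voom with quality weights. With libraries left out in turn, Glp1r ran from -0.323 to 0.0832, Ffar1 from -0.363 to 0.0337, Gpr119 from -0.0775 to 0.197, Adra2a from -0.296 to 0.313, Prlr from -0.117 to 0.323 and Irs2 from -0.349 to 2.8. With the acinar covariate, in acinar-poor libraries (1 knockout library, assumed to vary like the controls) and under beta-cell scaling, Glp1r became 0.0735, 0.249 and 0.126, and Ffar1 0.0482, 0.136 and 0.0671. Under beta-cell scaling the median of all genes was 0.252. Ddc became 0.0153 in acinar-poor libraries. By limma-voom with quality weights, Adra2a became -0.259 and Prlr -0.0163. With tags Q and R only, chosen after seeing the data, Adra2a became -0.356, Prlr -0.144, Gpr119 -0.0552 and Irs2 -0.292.

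The count of genes passing, 0 by edgeR (2589 at an unadjusted p under 0.05), was 634 by the DESeq2 Wald test, 1046 by limma-voom with quality weights, 3 with the acinar covariate, 67 in acinar-poor libraries, and 0 to 701 with a library left out, the 701 without Traf6 KO 3. With the longest transcript, 5 of 9 receptors kept their place in the control order per length. The cause of these shifts was not tested. As deviations from their group means, same-numbered libraries correlated at 0.596, -0.177 and 0.454, and 3 of 6 libraries correlated best with their own number. So few pairs cannot settle whether the numbers pair the samples. With the replicate block 6 genes passed, and the differences were -0.0949 for Glp1r, -0.523 for Gipr, -0.623 for Gcgr, -0.37 for Sstr3 and -0.546 for Traf6. Depth limits Gpr119 most, at 123 to 609 counts.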

Other observations

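Immediate-early genes of the cAMP-induced list, chosen after their values were seen, were high in 1 knockout library. Fos was at 2660 CPM in Traf6 KO 3, while the other knockout libraries had 106 and 95.4 CPM and the controls 193, 869, 749 and 109 CPM. Nr4a1 was at 884 CPM in Traf6 KO 3 and at 17.0 and 31.0 CPM in the other knockout libraries, with controls at 47.9 to 309 CPM. The same library was the highest for Glp1r, Ffar1, Adra2a and Prlr, had no counts on 4 Y-linked genes, and carried 1.65% of its counts on acinar markers. Its insulin gene Ins1 was nevertheless at 10840 CPM, the lowest of all 7 libraries, against 20910 to 44550 CPM in the controls. Traf6 KO 1 and 2 were also below every control, at 14730 and 12920 CPM. Every knockout library was below every control for 8.68% of all genes.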
